A study of Homo sapiens with 6 samples.

Results

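SLK and its relatives among the Ste20-like protein kinases were followed across the cassette exons of an RNA-seq splicing table. A cassette exon is an exon that is either kept between its flanking exons or skipped. All entries whose gene symbol was SLK, STK10, MAP4K4, MINK1, TNIK, TAOK1, STK3, STK4, STK24 or STK25 were taken, which gave 27 of the 24725 events of the table. They lay in 9 of these 10 genes, and all 27 had rates in every sample and at least 10 reads. No entry stood under the symbol TAOK1.

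Ste20-like kinases are serine/threonine kinases named after a yeast kinase that acts above a MAP kinase cascade. The members studied here have an N-terminal kinase domain and a C-terminal part, of differing length, that holds regulatory and binding regions, and alternative exons often fall in that second part. SLK and STK10 phosphorylate ezrin, radixin and moesin, which tie actin to the plasma membrane, and SLK is known for its part in cell motility and microtubule organisation. STK3 and STK4 (MST2 and MST1) are the kinases at the head of the Hippo pathway. MAP4K4, MINK1 and TNIK form one subfamily with roles in JNK and Wnt signalling, adhesion and migration, and STK24 and STK25 (MST3 and SOK1) act in Golgi organisation and within phosphatase-containing STRIPAK complexes.

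The cells were MDA231-BrM2a, a brain-metastatic derivative of the human breast cancer line MDA-MB-231. In the 3 Control samples the cells carried the empty pRetroX-Tight-Pur vector and were not clonal, and in the 3 RBM47 samples they were 1 clone (wt#10) with Flag-tagged wild-type RBM47, an RNA-binding protein, under a doxycycline-inducible promoter. Both groups received 10 ng/ml doxycycline for 3 days. What RBM47 does and what the choice of a clone does cannot be told apart in this design. The level of RBM47 itself was not analysed here, and nothing in the labels says that the samples of a group were separate cultures. P-values from sample rates (limma and permutation tests) therefore measure only the spread between these samples. Fisher's exact p-values come from group totals of reads and do not measure that spread.

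Inclusion was given for each sample as a rate from 0 (always skipped) to 1 (always kept), the reads over both junctions of the included exon as a share of these and the skipping reads, which count 2 times. Reads were given as totals over the 3 samples of a group, 26498401 in Control and 24116982 in RBM47. The depth of a single sample is unknown. Any 2 samples correlated across all events with r from 0.953 to 0.974, and RBM47 replicate 2 stood apart in that 14.8% of its rates between the extremes of the table (events with a mean rate of 0.1 to 0.9) lay at 0 or 1, where the remaining 5 samples had 6.07% to 7.64%. In 2 of the 27 kinase events, 1 in SLK and 1 in STK4, the 3 rates of a group printed in the entry did not average to the printed group average. The rates of these 2 events were recovered from other entries, by both averages for STK4 and by the RBM47 average alone for SLK. In both cases the recovered rates stood directly below the other event of the same gene.

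The exons on which the results turn are shown first, because their length and reading frame decide what is added to the protein. Positions in the table carry no build name, so each exon was found in GRCh37 by gene name and by the distance between the outer ends of its flanking exons, with the same shift for all events of a gene to within 10 bases. In each line the exon is in capitals and flanking intron bases are in lower case, read in the direction of transcription. The SLK exon has 93 bases (chr10:105770574-105770666), lies 2459 bases after the upstream exon and 7251 before the next one, and is coding with no stop codon in the annotated frame.
SLK 93-base exon: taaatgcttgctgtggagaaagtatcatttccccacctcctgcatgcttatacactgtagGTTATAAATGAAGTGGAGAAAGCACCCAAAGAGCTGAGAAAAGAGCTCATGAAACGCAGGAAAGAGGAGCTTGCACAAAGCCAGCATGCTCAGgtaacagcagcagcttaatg
The next 3 are MAP4K4 exons of 162 bases (chr2:102477287-102477448), 231 bases (chr2:102480283-102480513) and 192 bases (chr2:102487956-102488147), of which those of 162 and 231 bases are neighbours in the gene.
MAP4K4 162-base exon: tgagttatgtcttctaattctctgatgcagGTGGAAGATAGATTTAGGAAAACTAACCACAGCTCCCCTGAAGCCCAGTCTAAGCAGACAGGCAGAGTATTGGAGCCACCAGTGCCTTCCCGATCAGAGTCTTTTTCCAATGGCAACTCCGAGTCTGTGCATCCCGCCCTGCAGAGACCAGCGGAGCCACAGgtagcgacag
MAP4K4 231-base exon: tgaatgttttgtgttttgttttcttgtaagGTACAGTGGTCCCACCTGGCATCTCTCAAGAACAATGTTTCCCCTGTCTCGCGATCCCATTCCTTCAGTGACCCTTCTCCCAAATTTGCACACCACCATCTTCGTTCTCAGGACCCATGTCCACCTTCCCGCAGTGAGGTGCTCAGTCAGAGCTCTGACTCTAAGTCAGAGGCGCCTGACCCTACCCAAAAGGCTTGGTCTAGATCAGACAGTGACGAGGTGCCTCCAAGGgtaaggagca
MAP4K4 192-base exon: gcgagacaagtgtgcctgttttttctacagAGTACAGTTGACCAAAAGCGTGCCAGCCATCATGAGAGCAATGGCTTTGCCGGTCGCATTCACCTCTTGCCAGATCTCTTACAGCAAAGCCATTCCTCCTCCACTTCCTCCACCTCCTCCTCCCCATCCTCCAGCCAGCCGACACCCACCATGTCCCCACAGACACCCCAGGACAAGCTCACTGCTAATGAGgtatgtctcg
The last is a MINK1 exon of 24 bases (chr17:4796581-4796604), shown because it is so short.
MINK1 24-base exon: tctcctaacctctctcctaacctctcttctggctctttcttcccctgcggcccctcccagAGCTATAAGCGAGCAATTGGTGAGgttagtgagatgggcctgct
All 5 exons lie on the plus strand, are coding, have lengths that are multiples of 3, are preceded by AG and followed by GT. Across the 9580 distinct exons matched in the whole table by gene and span, 46.0% had a length that is a multiple of 3, the median length was 107 bases and 2.64% had at most 30 bases. A run of 6 T (TTTTTT) in the 100 bases before the exon was found for the 192-base MAP4K4 exon and not for the other 4, against 20.8% of all matched exons. A run of 6 T in the 100 bases after the exon was found for the 231-base MAP4K4 exon alone among the 5, against 13.6%. The same run on the opposite strand (AAAAAA) was in none of these flanks, against 6.12% before and 5.67% after all matched exons.

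**Figure D1:**
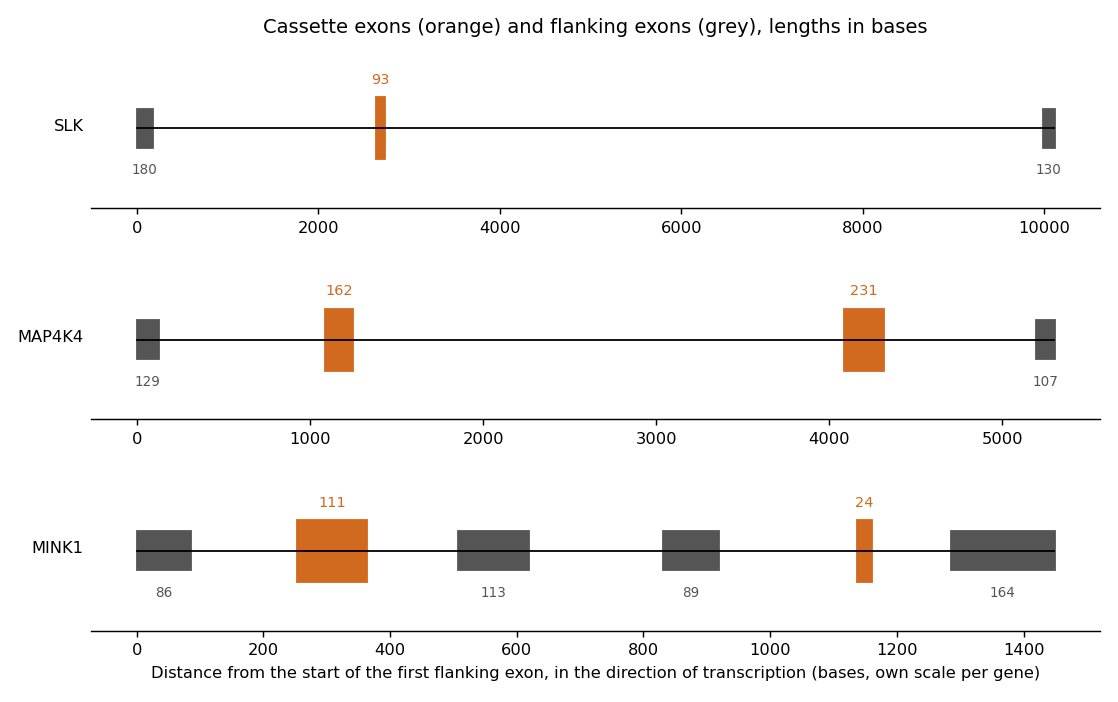
Position of cassette exons (orange) between their flanking exons (grey) in SLK, MAP4K4 and MINK1, as distance in bases from the start of the first flanking exon, with exon lengths in bases and a scale of its own for each gene. The 93-base SLK exon stands alone in a long interval, the MAP4K4 exons of 162 and 231 bases are neighbours, and the MINK1 exons of 111 and 24 bases lie in short introns.

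The first question was whether inclusion of the alternative SLK exon differed between RBM47 and Control cells. The exon was almost always skipped in Control cells and was kept at an intermediate rate in RBM47 cells. Its rates in Control replicates 1, 2 and 3 were 0.00862, 0.0127 and 0, and in RBM47 replicates 1, 2 and 3 they were 0.325, 0.393 and 0.333. Every RBM47 sample lay far above every Control sample, with no overlap. The means were 0.00709 ± 0.00647 (SD, n = 3) and 0.350 ± 0.0370 (SD, n = 3), so inclusion rose by 0.343 ± 0.0217 (SE). This exceeded the spread between samples (limma on arcsine square root rates, adjusted p = 0.000865 over 5998 events). The read totals gave the same direction, since 6 reads included the exon and 387 skipped it in Control cells, against 159 and 146 in RBM47 cells (Fisher's exact test, two-sided, p = 5.26e-62, Benjamini-Hochberg adjusted p = 6.85e-59). Rates computed from these totals were 0.00769 and 0.353. The difference ranked 119 by size among the 346 events of the table past the study criteria, which were an unadjusted Fisher p of at most 0.05, a difference of at least 0.2 and at least 10 reads. The criteria were applied anew here, with recovered rates, so the 346 are not the study's own count, which was smaller. By Fisher p it ranked 19 among all events.

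This result rests on the recovered rates. The rates in the SLK entry itself would give a difference of -0.322, and the printed averages one of -0.608, both opposite in sign to the read totals of the same entry. The printed Control average of 0.958 does not go with 6 including and 387 skipping reads, whereas the printed RBM47 average of 0.350 goes with 159 and 146. The other SLK event, an exon of 49 bases (chr10:105752356-105752404), was never skipped in any of the 6 samples, with 346 including reads in Control and 135 in RBM47 cells and 0 skipping reads in either group. Its length is not a multiple of 3.

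**Figure D2:**
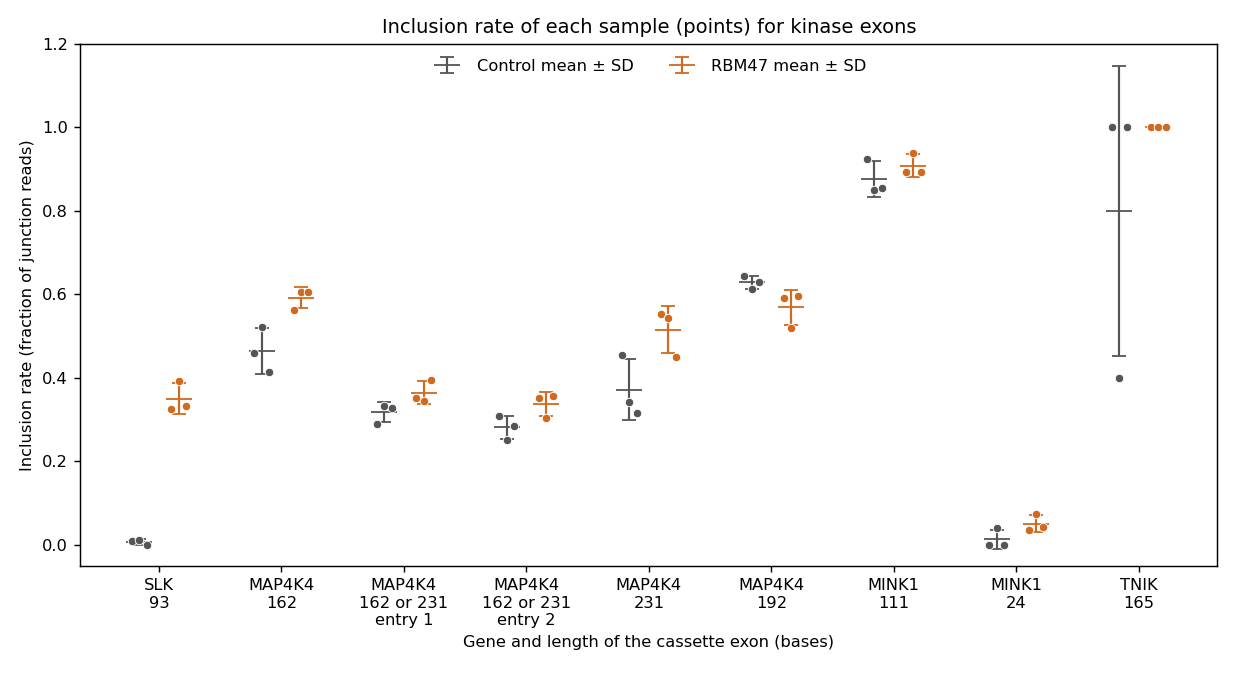
Inclusion rate of each sample (points), with the group mean and SD (bars), for kinase exons with a mean rate of 0.1 to 0.9 and the 24-base MINK1 exon. SLK separates most widely between Control (at most 0.0127) and RBM47 (at least 0.325), the MAP4K4 pairs lie close together, and the TNIK mean is set by 1 Control sample at 0.400, whose SD bar reaches past 1 although a rate cannot.

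MAP4K4 had the most events with intermediate rates, 5 of its 6, and its differences were smaller than that of SLK. None of its 6 events met the study criteria, and none of the 5 that the replicate-level test covered passed it. The 162- and 231-base exons enter 4 of the events in different pairings, so these share junctions and are not independent. Where one exon is named as neighbour of the other, the rate also counts junction reads from transcripts without that neighbour. With the 231-base exon as its downstream neighbour, the 162-base exon had rates of 0.459, 0.522 and 0.414 in Control and 0.562, 0.607 and 0.606 in RBM47 replicates 1 to 3. All 3 RBM47 rates were above all 3 Control rates, and the mean difference was 0.127 ± 0.0345 (SE), from 0.465 ± 0.0542 to 0.592 ± 0.0253 (SD, n = 3 each). The limma adjusted p was 0.526 and Fisher's exact p was 0.0199 when 109 and 51 reads in Control samples were set against 149 and 39 in RBM47 cells (including first), or 0.197 after Benjamini-Hochberg adjustment. The rate from the RBM47 totals was 0.656, above the rate of every RBM47 sample. The totals thus hold including reads that are not in the rates, and the Fisher p rests in part on them.

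With the 162-base exon as its upstream neighbour, the 231-base exon had rates of 0.455, 0.343 and 0.316 in Control and 0.552, 0.544 and 0.451 in RBM47 cells. Control replicate 1 and RBM47 replicate 3 overlapped narrowly. The difference of 0.144 ± 0.0533 (SE) had an unadjusted limma p of 0.0475 and a limma adjusted p of 0.413, and 194 reads included the exon and 82 skipped it in Control, against 203 and 56 in RBM47. Rates from these totals were 0.542 in Control and 0.644 in RBM47, each above every sample rate of its group.

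The other pair of events joins the flanking exons of 129 and 107 bases. Either the 162- or the 231-base exon lies between them, and positions alone do not tell which entry is which. Both have the same skipping totals of 168 and 129 reads. Including reads were 174 in Control and 185 in RBM47 for the first entry, and 228 and 222 for the second. Through the junctions that the 4 events share, these totals add up in both groups only with the first as the 162-base and the second as the 231-base exon. The first had rates of 0.290, 0.333 and 0.329 in Control and 0.353, 0.344 and 0.396 in RBM47 cells, without overlap, and a difference of 0.0470 ± 0.0211 (SE). The second had 0.308, 0.253 and 0.285 against 0.353, 0.304 and 0.357, with RBM47 replicate 2 below Control replicate 1, and a difference of 0.0564 ± 0.0234 (SE). Their limma adjusted p values were 0.740 and 0.658. For both entries, rates from the read totals lay above every sample rate of the same group. All 4 differences of this neighbouring pair of exons were thus positive but within what the replicate-level test allows.

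The 192-base MAP4K4 exon went the other way in value. Its rates were 0.645, 0.613 and 0.629 in Control and 0.592, 0.520 and 0.596 in RBM47 cells, so every RBM47 sample was lower than every Control sample. The difference was -0.0599 ± 0.0263 (SE, limma adjusted p = 0.504) at the highest depth of the alternative MAP4K4 exons, with 1186 Control and 1170 RBM47 reads. Without RBM47 replicate 2 it was -0.0353. Rates from the read totals of this exon were 0.689 in Control and 0.651 in RBM47, each above every sample rate of its group. The remaining MAP4K4 event, an exon of 79 bases (chr2:102452362-102452440), was nearly always kept, at 0.992 ± 0.00713 and 0.985 ± 0.0157 (SD, n = 3 each).

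MINK1, the close relative of MAP4K4, had 1 exon that was mostly kept and 2 that were mostly skipped. The 24-base exon shown above had rates of 0, 0.0405 and 0 in Control and 0.0363, 0.0749 and 0.0421 in RBM47 cells. Control replicate 2 overlapped with RBM47 replicate 1. The mean went from 0.0135 ± 0.0234 to 0.0511 ± 0.0208 (SD, n = 3 each), a difference of 0.0376 (exact permutation test, two-sided, p = 0.2, where 3 against 3 samples cannot go below 0.1). The summed reads differed by more, since 32 reads included this exon and 420 skipped it in Control cells, against 95 and 376 in RBM47 cells, which is a rate of 0.0367 against 0.112 (Fisher's exact p = 5.67e-09, adjusted p = 5.25e-07). The rate of 0.112 from the RBM47 totals lay above the rate of every RBM47 sample. The totals thus hold including reads that are not in the rates, and the Fisher p rests in part on them. A test on pooled reads is also blind to the spread between samples, and the difference in rates was far below the required 0.2.

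The 87-base MINK1 exon (chr17:4793517-4793603) was included at 0.0237 ± 0.0107 in Control and 0.0227 ± 0.0188 in RBM47 cells (SD, n = 3 each, exact permutation p = 1). Its read totals of 59 including and 189 skipping against 34 and 188 had a Fisher's exact p of 0.0272, without a matching difference between the sample rates. The including totals of the table hold reads beyond those in the rates: of 963 events with a rate of 0 in all Control samples, 576 had including reads in Control. The 111-base MINK1 exon (chr17:4795697-4795807) was kept at 0.877 ± 0.0422 and 0.909 ± 0.0266 (SD, n = 3 each, limma adjusted p = 0.776).

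TNIK had 1 event, an exon of 165 bases on the minus strand (chr3:170846503-170846667), and few reads. Its rates were 1, 0.400 and 1 in Control and 1 in all 3 RBM47 samples. The difference of 0.20 ± 0.20 (SE) came from Control replicate 2 alone and was 0 without it. In Control cells 27 reads included it and 3 skipped it, against 20 and 0 in RBM47 cells (Fisher's exact p = 0.265, limma adjusted p = 0.727).

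The Hippo kinases STK3 and STK4 had exons at the extremes of the scale. STK3 had 1 exon kept at a rate of 1 and 1 at a rate of 0 in all 6 samples, and its remaining event stood at 0, 0.00926 and 0.0233 in Control and 0.0196, 0.0455 and 0 in RBM47 cells, with full overlap (exact permutation p = 0.7). One STK4 exon was kept at 0.995 ± 0.00481 in Control and at 1 in all RBM47 samples. The other, with recovered rates, was mostly skipped, at 0, 0.0107 and 0.0440 in Control and 0.0417, 0.0278 and 0.0732 in RBM47 cells. These overlapped (exact permutation p = 0.3), the difference of 0.0293 was -0.0160 with the rates that stand in the entry, and the totals (including, skipping) of 10 and 320 in Control against 15 and 138 in RBM47 had a Fisher's exact p of 0.00328 and an adjusted p of 0.0584.

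STK24 and STK25 were read more deeply and differed by little. The 57-base exon of STK24 was kept at 0.989 ± 0.00655 and 0.994 ± 0.00222 (SD, n = 3 each) from 2254 Control and 2289 RBM47 reads. A second STK24 exon was all but always skipped, with rates of at most 0.00454 in any sample. Here the difference in rates was -0.00154, while the totals of 11 and 814 against 16 and 510 reads went the other way (Fisher's exact p = 0.0440, adjusted p = 0.321).

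In STK25, 5 events were kept at mean rates over 0.9 and 2 were skipped at mean rates near 0.01. The 2 entries matched by gene and span to a 231-base exon (chr2:242440893-242441123) share outer ends and skipping totals, but not including totals. These were 2199 in Control and 1602 in RBM47 for the first, and 1270 and 1015 for the second. The entries therefore cannot both be this exon with the same splice sites, and which of them is the 231-base exon was not settled. The first had rates of 0.991, 0.974 and 1 in Control and 0.965, 0.972 and 0.974 in RBM47 cells, which did not overlap, although Control replicate 2 and RBM47 replicate 3 nearly met. The difference was -0.0178 ± 0.00812 (SE, exact permutation p = 0.1). The second had a difference of -0.0398 ± 0.0232 (SE), with overlap (exact permutation p = 0.3), which was -0.0242 without Control replicate 3 and -0.0163 from the summed reads. The other 5 differences of STK25 lay between -0.0217 and 0.0133. STK10, the nearest relative of SLK, had a single 73-base exon (chr5:171534784-171534856) that was never skipped in any sample, with 1012 reads in Control and 868 in RBM47 cells.

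**Figure D3:**
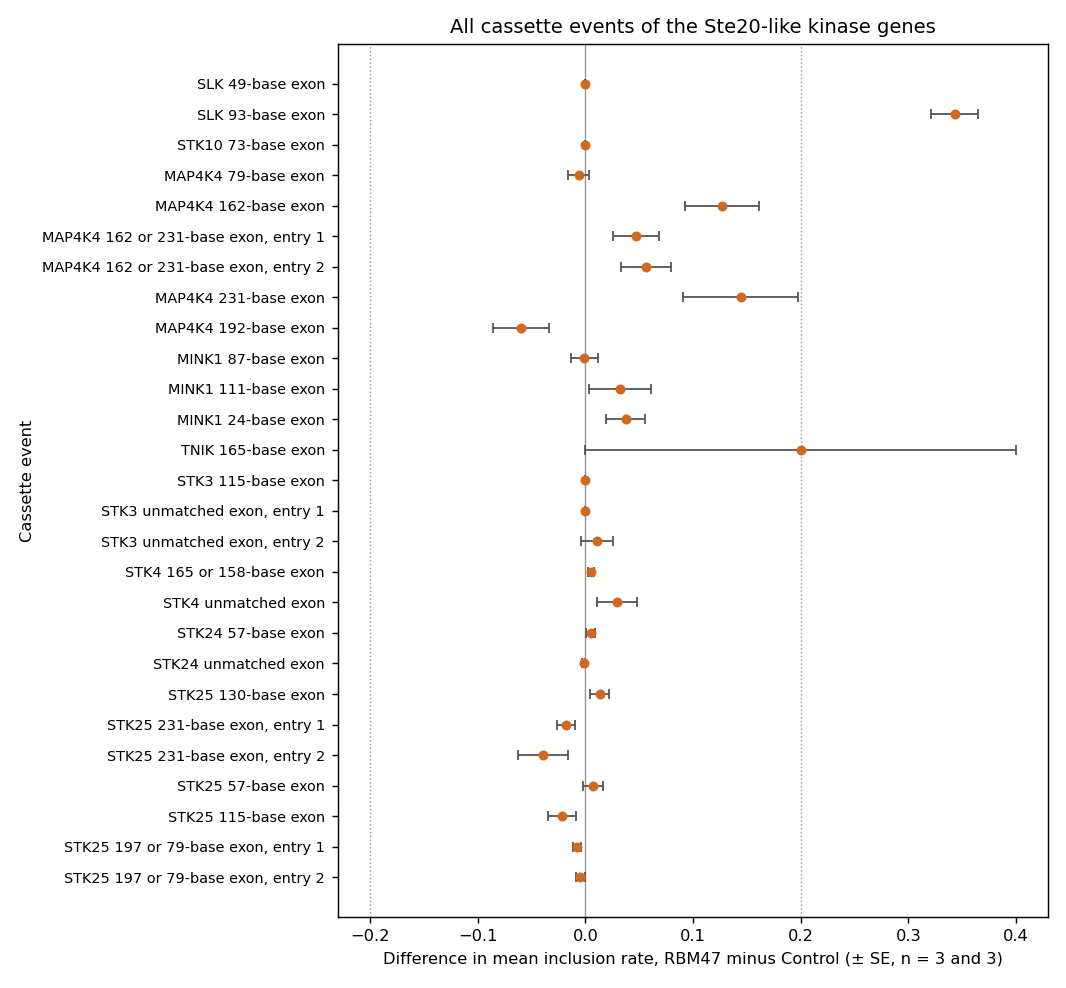
Difference in mean inclusion rate (RBM47 minus Control) of all 27 kinase events, with bars for the SE (n = 3 and 3) and dotted lines at the required difference of 0.2. The SLK exon of 93 bases stands at 0.343, TNIK reaches 0.20 with an SE as large, and the MAP4K4 exons of 162 and 231 bases at 0.127 and 0.144 are the next highest.

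Over all 27 kinase events, inclusion was higher in 14, lower in 9 and equal in 4, and the median absolute difference was 0.0133 against 0.0114 over all events of the table. Among the 23 unequal events, read totals went in the direction of the rates in 20 and in another in 3, in STK3, STK24 and STK25, all with mean rates under 0.1. The study criteria were met by 1 event (SLK), or 3.70% of the 27, where the background was 1.40% of 24706 events, 0.607% for higher inclusion and 0.793% for lower inclusion alone. The replicate-level test, which took a limma adjusted p below 0.05 together with a change of 0.2 or more, called 1 of the 8 kinase events it covered (SLK), against 1.53% of 5998 events, and 0.750% for higher inclusion. Without the size of the change the limma test still passed 1 of the 8 (background 2.23%), and at an unadjusted limma p under 0.05 it passed 2 (SLK and the 231-base MAP4K4 exon), against 12.0%. At an unadjusted Fisher p of at most 0.05 there were 9 of 27 (33.3%), against 14.4% of all events, and with adjustment 2 of 27 (7.41%, SLK and the 24-base MINK1 exon), against 5.29%. Of the 9, 3 are MAP4K4 events that share junctions and are not independent. For those of the 9 in MAP4K4, MINK1 (the 24-base exon included), STK24 and STK25, the tested totals hold including reads beyond those in the rates. The groups did not overlap in 5 of 27 events (18.5%, background 9.92%), of which 3 were in MAP4K4 and in part share reads. Among the 8 events with intermediate rates they did not overlap in 4, against 17.8%.

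**Figure D4:**
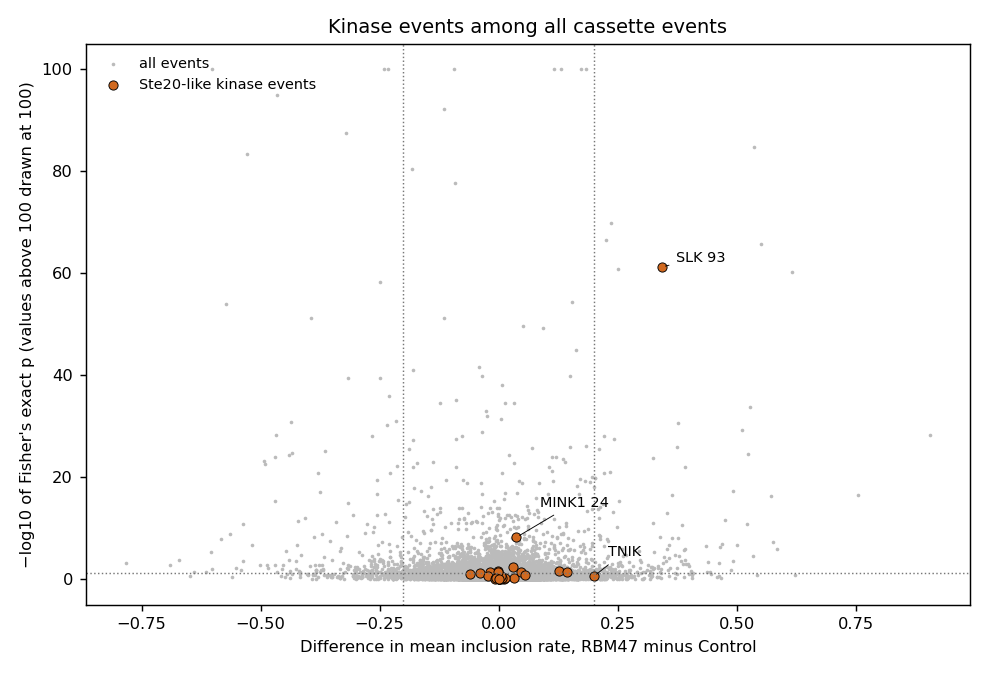
Difference in mean inclusion rate against the −log10 of Fisher's exact p for all 24706 events with rates (grey) and the 27 kinase events (orange), with dotted lines at the study criteria of 0.2 and 0.05. The SLK exon lies in the upper right region past both, the 24-base MINK1 exon is past the p criterion with a difference of 0.0376, and TNIK is at 0.20 without passing the p criterion.

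Junction reads, as opposed to inclusion, also differed between the kinase genes, as group totals with no replicate check. The median event of the table had 0.856 times as many reads in RBM47 as in Control cells. In STK3 the 3 events had 0.365 to 0.483 times as many, and in STK4 the pair had 0.464 and 0.492. In all, 12.2% of events of the table were at or below 0.5. The 49-base SLK exon, kept in every sample, was at 0.390, while the 93-base SLK exon was at 0.776, a value that also counts the extra junction of the included exon. STK25 events ran from 0.637 to 0.806, whereas MAP4K4 ran from 0.848 to 1.18 and MINK1 from 0.895 to 1.14. Reads per sample were not used, so whether these ratios exceed the spread between samples was not tested. In bulk RNA, less RNA per cell and fewer cells that express a gene cannot be told apart.

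**Figure D5:**
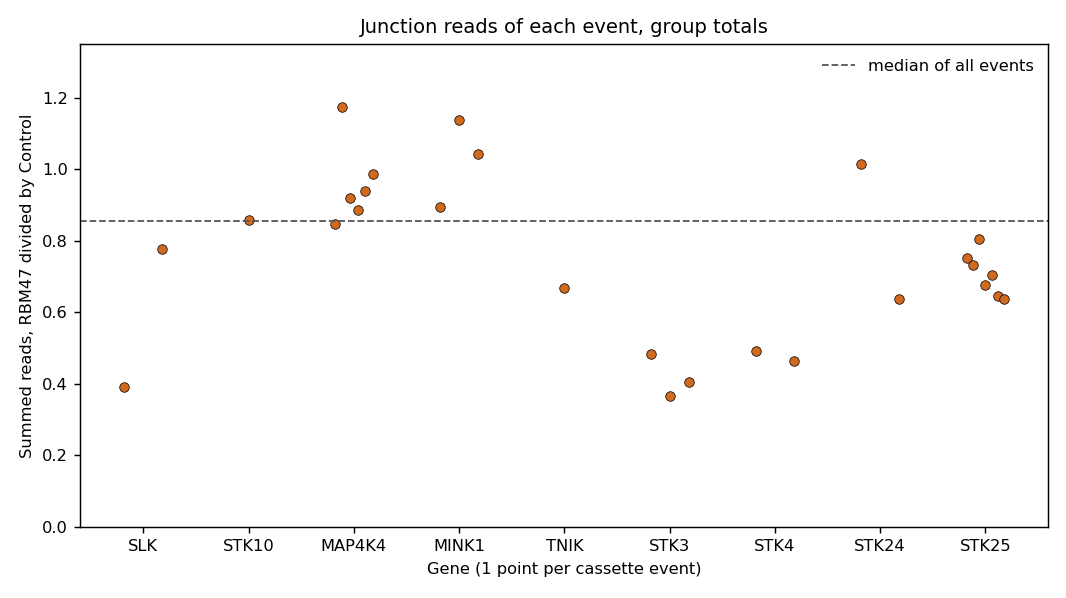
Summed junction reads in RBM47 divided by Control for each kinase event (points), by gene, with the median of all events of the table (dashed line, 0.856). STK3 and STK4 events lie below 0.5, and MAP4K4 and MINK1 events at 0.848 or above.

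Genes that work with these kinases were examined through 4 lists of 91 symbols, older names included, of which 53 had events (181 in all). The study criteria were met by 1 event with higher and 7 with lower inclusion (4.42% of the 181, against a background of 1.40%, or 0.607% higher and 0.793% lower). The replicate-level test called 1 higher and 4 lower of 51 covered, against 1.53% of all events covered and 0.750% for higher inclusion. The lists were drawn up with earlier results of these data known, and both NF2 events among the 8 share skipping totals. These shares are therefore descriptions only. The median difference over the 181 was -0.00287, against 0 over the table. For all but STRADA the rates were recovered from other entries through the RBM47 average, as for SLK, and read totals went the same way as the rates in all 8.

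The largest were in NF2, which encodes merlin, a membrane-linked activator of the Hippo kinases. Its 2 events share outer ends and skipping totals, and inclusion fell by 0.537, from 0.869 ± 0.00219 in Control to 0.332 ± 0.0712 in RBM47 cells, in one (SD, n = 3, limma adjusted p = 0.0247). In the other the difference was -0.564 with a limma adjusted p of 0.0595. In MAP2K7, a kinase that activates JNK, rates were 0.852, 0.817 and 0.851 in Control and 0.415, 0.415 and 0.429 in RBM47 cells, so inclusion fell by 0.421 (limma adjusted p = 0.000520). Rates from the MAP2K7 read totals differed by less, -0.227. MAP3K7, also known as TAK1 and itself above JNK, had the one event with higher inclusion among these 8, from 0.0668 ± 0.0389 in Control to 0.275 ± 0.00859 in RBM47 cells (SD, n = 3, limma adjusted p = 0.0477).

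In GOLGA2, which encodes the Golgi protein GM130 that binds STK25, inclusion fell by 0.376, from 0.645 ± 0.0224 in Control to 0.269 ± 0.0774 in RBM47 cells (SD, n = 3, limma adjusted p = 0.0113). SLMAP, a STRIPAK subunit that recruits the complex to STK3 and STK4, fell by 0.213, from 0.969 ± 0.0185 in Control to 0.756 ± 0.0874 in RBM47 cells (SD, n = 3, limma adjusted p = 0.0444). MAP4K3 (-0.286) and the pseudokinase STRADA (-0.208) met the study criteria with overlapping samples, and their limma adjusted p values were 0.294 and 0.619. By list, the criteria were met by 2 of 40 events of other Ste20-group kinases, 2 of 46 of the Hippo pathway, 2 of 67 of STRIPAK, CCM and MO25 partners and 2 of 28 of ERM proteins and stress kinases.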

How the data were processed

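The authors deposited 1 table with, per cassette event, the inclusion rate of each of 6 samples as a fraction (reads over both including junctions divided by these plus 2 times the skipping reads), the average fraction of each group, and counts of including and skipping reads summed over the 3 samples of a group. Columns of the authors' own comparison (difference, odds ratio, p-value) were not used. The submitters' processing notes name TopHat, and the study's methods name STAR and hg19 for RNA-seq of the cell lines. The build of the table's positions is not given in the sources used here, and exons were matched to GRCh37 (GENCODE) by gene and span.

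In 1392 of 24725 entries (5.63%), all with a Fisher p of at most 0.05, rates did not average to the printed averages within 3e-09. Rates were recovered through both averages (1122), or through the RBM47 average where no entry carried both (251, SLK among them), and 19 events stayed without rates. Fisher's exact test used scipy 1.17.1. limma 3.58.1 (R 4.3.3) was fitted on arcsine square root rates of all events with mean rates of 0.1 to 0.9, with a variance trend on log2 reads. Benjamini-Hochberg adjustment ran over all events of each test. Both tests and the matching were tested on simulated data. Kinases, gene lists and the form of the limma test were chosen with earlier results of these data known. All kinase events were described, and of the gene lists the events past the study criteria were named. Alternatives are given in the closing section.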

Additional observations from a re-analysis of the deposited data

How the results depend on the processing

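The SLK exon of 93 bases passed the limma test under each alternative in which it could be fitted, with adjusted p of 0.00473 to 0.00858 without 1 sample, 0.00179 on log2 odds with 0.01 added, 0.00136 on untransformed rates, 0.0199 with no variance trend and 0.0243 with all mean rates. With the replicate number as a block its adjusted p was 0.00640, and the block changed no call among the kinase events (69 calls in the whole table against 92). Same-numbered samples did not deviate together (r across events -0.0222, -0.00560 and 0.0142 for numbers 1, 2 and 3). Whether they were handled together cannot be told from this, because noise in single rates of unknown depth can hide a shared deviation. The SLK difference was 0.322 to 0.356 without 1 sample, but reversed to -0.322 with rates as they stand in its entry and to -0.608 with the printed averages, and the cause was not tested. With entries aligned as deposited alone, SLK is left out and 0 kinase events passed either test. With a difference of at least 0.1, 3 kinase events met the study criteria.

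The related lists went from 8 events to 13 with a difference of at least 0.1, 4 with at least 0.3 and 1 in aligned entries. The whole table went from 346 to 208 with an adjusted Fisher p, 891 with at least 0.1, 157 with at least 0.3 and 76 in aligned entries, and the 92 replicate-level calls to 56 with no trend, 46 with all mean rates, 1 in aligned entries and 49 (without Control replicate 3) to 69 without 1 sample. Of 243 alternatives for single kinase events, 235 moved the difference by no more than the SD, 6 moved it further and 2 were the SLK reversals. The sign also changed in 10 alternatives over 7 other events, none past either test: STK4 (-0.0160 with rates in its entry), STK24 (0.00873), STK25 (8.8e-05) and STK3 (-0.00356) with summed reads, and small differences of STK3, MAP4K4 (79 bases), MINK1 (87 bases) and STK25 (57 bases) without 1 sample. Depth per sample is unknown, which limits the precision of any single rate.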

Other observations

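The displaced rates kept an order of their own. Among 1246 events with recovered rates in genes that have other entries, the recovered rates stood directly above or below an entry of the same gene in 882, whereas the entry itself stood beside one in 9. The SLK and STK4 events are both among the 882. The recovery used only averages, not the position in the table.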
